A study of Rattus norvegicus with 18 samples.

Results

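The 9 genes described here belong to the MHC class II presentation pathway and were followed through epileptogenesis in the rat hippocampus. Their probes were found by gene symbol, but the genes were chosen with earlier results of these data known. They are 9 of the 12344 named genes and have 10 of the 33849 gene probes. Every member had 1 probe except Ciita, which had 2. All 10 probes could be tested.

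MHC class II molecules are dimers of an alpha and a beta chain that carry peptides from the endosome to the cell surface, where CD4+ T cells read them. The invariant chain Cd74 escorts the new dimer and blocks its groove, lysosomal enzymes such as Ifi30 open the antigen, the DM dimer exchanges the last piece of the invariant chain for a peptide, and Ciita is the coactivator that switches the genes on. In the brain the pathway is best known from microglia and from macrophages at the borders, and it is low in the resting tissue.

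Adult male Wistar rats received pilocarpine, a muscarinic agonist that brings on status epilepticus (SE), after a peripheral cholinergic blocker, and diazepam ended the seizures, whereas the Control rats received saline alone, without the blocker or diazepam. The whole hippocampus was taken 3 days after SE (D3, 5 arrays), 7 days after SE (D7, 5 arrays), or right after the first spontaneous seizure (Chronic, 5 arrays, labelled "immediate"), and from saline rats of each of these times (Control, 3 arrays, 1 per time). Each array held the RNA of 1 hippocampal sample. Only rats that entered SE and survived were used, so the 3 drugs, the seizures and the survival come together in each pilocarpine group.

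Values are the intensities of single-colour CodeLink arrays, scaled by the authors so that the median probe of an array is about 1. A spot flagged G was good and a spot flagged L was near background. Between 66.0% and 76.0% of the gene spots of an array were flagged G. Levels of different genes cannot be compared, because each probe has its own brightness. The measured neuronal markers had a summed intensity of 98.1 to 134 at D3, 92.6 to 166 at D7, 114 to 163 in Chronic and 194 to 205 in Control. The part of that difference in the class II values was not tested. One of these markers, Snap25, was near background, flagged G on 1 D3 array and on no other array. Among the pilocarpine arrays, D7 replicate 32 stood apart for Cd74, RT1-Da and RT1-Ba and had the highest neuronal sum. The RT1 genes are close relatives in a polymorphic family and Wistar rats are outbred, and how far their probes also bind related copies or miss an allele was not tested.

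Class II promoters are known for a shared arrangement of boxes. In class II genes of rodents and man, the RFX complex binds the X1 box and NF-Y binds the Y box behind it, and Ciita docks on the proteins assembled there. The 300 bases around the start site were given by RefSeq on GRCr8 for 7 of the 9 members, and these were searched on both strands for the X1 core GCAAC followed 25 to 45 bases later by the Y core ATTGG, counted from start to start. RT1-Da and RT1-Ba held the pair, in the same order and with the same spacing of 33 bases. They are shown because both genes were among the 3 that moved together most closely in these arrays. The windows are chr20:4515313-4515390 and chr20:4576961-4577038, both on the plus strand, and the capitals mark the X1 core and then the Y core.
RT1-Da: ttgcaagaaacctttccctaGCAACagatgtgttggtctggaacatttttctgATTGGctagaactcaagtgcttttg
RT1-Ba: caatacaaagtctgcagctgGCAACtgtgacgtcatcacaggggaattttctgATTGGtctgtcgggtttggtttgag
The X1 core began 82 bases before the start site of RT1-Da and 76 bases before that of RT1-Ba, and the Y core 49 and 43 bases before it. The windows shared 34 of 78 bases. The pair occurred in 0.947% of the 33469 promoters of the table, the X1 core alone in 35.1% and the Y core alone in 37.5%. Cd74 had 1 X1 core and 1 Y core outside this spacing, RT1-Bb and RT1-DMa had Y cores only, and Cd86 and Ifi30 had neither. The window given for Cd86 lay well inside the annotated gene, so the sequence before the first base of that gene was not searched. A match is a description of the letters only, and many working boxes differ from these cores.

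Class II presentation genes were over-expressed at all times after SE. A gene was called when the adjusted p of limma was under 0.05 and the change at least 2-fold. At D3, 7 of the 9 genes were called higher than Control (Cd74, RT1-Da, RT1-Ba, RT1-DMb, Ciita, Cd86 and Ifi30), where 3.42% of the 33800 tested probes were. At D7 it was 6 of 9 (the same without Ciita) against 3.06% of all probes, and in Chronic the same 6 of 9 against 2.28%. No member was called lower, where 1.17% of all probes were at D3, 0.432% at D7 and 0.612% in Chronic. The median log2 fold change over the 9 genes was 1.85 at D3, 1.72 at D7 and 1.63 in Chronic, where the median over all tested probes was -0.12, -0.06 and -0.08. The 3 comparisons share the same Control arrays. The pilocarpine arrays lay entirely above Control for 7 genes at D3, 3 at D7 and 7 in Chronic, against 10.9%, 7.88% and 6.94% of all probes. With only the Control array of its own time as the comparison, the members called by limma numbered 4 at D3, 4 at D7 and 0 in Chronic, against 2.63%, 1.39% and 0.207% of 33267 probes. In that fit 1 array stands for the whole control group and is taken to vary like the others. The 6 genes then had log2 fold changes of 1.13 to 2.74 in Chronic and limma adjusted p of 0.0579 to 0.24, RT1-Ba, Cd86 and Ciita were not called at D3 (0.0598, 0.252 and 0.178), and RT1-Da and RT1-Ba not at D7 (0.0664 and 0.14). Without D7 replicate 32 the calls at D7 numbered 7, and with other arrays left out 4 to 6. The test named in the study's methods, after Benjamini-Hochberg adjustment, called 0 of the 9 at D7, against 0.269% of all probes. With all 3 Control arrays, 8 of the 9 members had an unadjusted p under 0.05 in Chronic, as did 29.4% of all probes. With the other of its probes for Ciita, an alternative chosen after seeing the data, the calls numbered 6 at D3, 6 at D7 and 6 in Chronic.

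**Figure D1:**
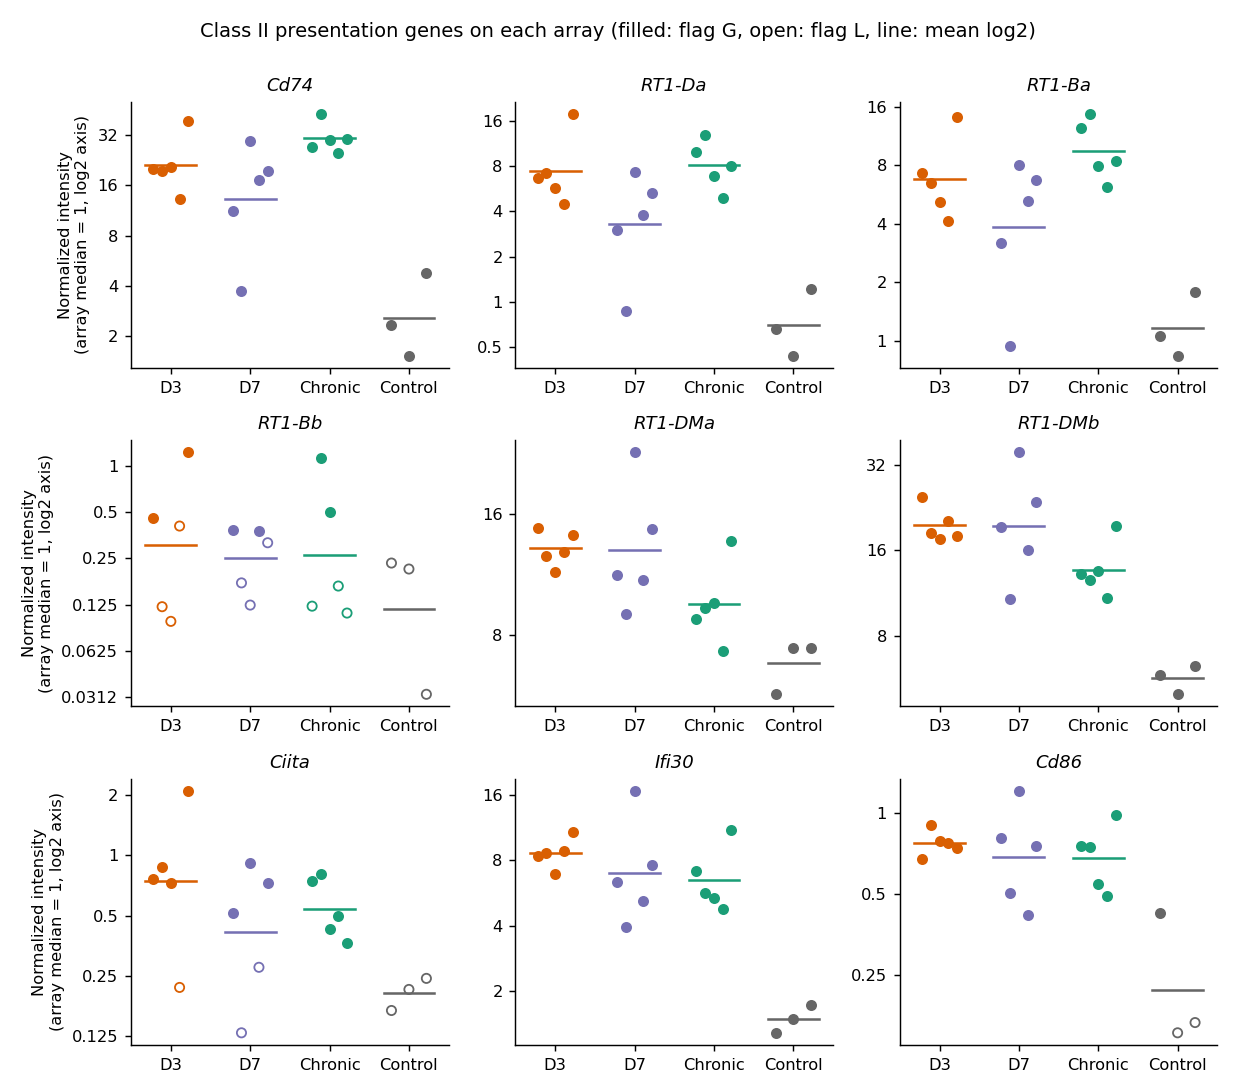
Normalized intensity (log2 axis, array median about 1) of the 9 class II presentation genes on each array of D3, D7, Chronic and Control. Filled points were flagged G and open points L, and lines are means of the log2 values. Cd74 lay between 13.3 and 39.0 on the D3 arrays, 3.71 and 29.4 on the D7 arrays, and 25 and 43.1 on the Chronic arrays, against 1.52 to 4.75 on the Control arrays.

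The invariant chain and the alpha chains gave the greatest fold changes at D3 and in Chronic. Cd74 measured 20.1, 19.4, 20.7, 13.3 and 39.0 on the D3 arrays, 11.2, 3.71, 29.4, 17.3 and 19.6 on the D7 arrays, 27.3, 43.1, 30.1, 25 and 30.5 on the Chronic arrays, and 2.31, 1.52 and 4.75 on the Control arrays. Every D3 and Chronic array was above all Control arrays, and D7 replicate 32, at 3.71, was the only pilocarpine array within the Control range. Cd74 was 8.27-fold higher than Control at D3 (log2 fold change 3.05 ± 0.48, SE, adjusted p = 0.00024 by limma) and 5.21-fold higher at D7 (2.38 ± 0.48, adjusted p = 0.00314). In Chronic it was 12-fold higher (limma adjusted p = 0.000257), and the Chronic arrays differed among themselves by no more than 1.72-fold, against 2.95-fold at D3, 7.94-fold at D7 and 3.13-fold in Control.

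RT1-Da, the alpha chain of the rat D molecule that corresponds to human HLA-DR, measured 6.70, 7.21, 5.74, 4.45 and 17.9 on the D3 arrays, 3.02, 0.864, 7.27, 3.77 and 5.29 on the D7 arrays, 9.90, 13, 6.88, 4.92 and 7.98 on the Chronic arrays, and 0.664, 0.438 and 1.21 on the Control arrays. Again D7 replicate 32 alone fell within the Control range. RT1-Da was higher by 3.39 ± 0.53 at D3 (log2, SE, limma adjusted p = 0.00023), by 2.22 ± 0.53 at D7 (adjusted p = 0.00859) and by 3.52 ± 0.53 in Chronic (adjusted p = 0.000598), that is 10.5-, 4.65- and 11.5-fold. Without D7 replicate 32 the D7 value was 2.70, and without Control replicate 36 it was 1.87 and no longer called (adjusted p = 0.0593 by limma).

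RT1-Ba, the alpha chain of the B molecule that corresponds to human HLA-DQ, measured 7.25, 6.47, 5.2, 4.13 and 14.2 on the D3 arrays, 3.20, 0.939, 7.99, 5.21 and 6.73 on the D7 arrays, 12.4, 14.7, 7.90, 6.15 and 8.4 on the Chronic arrays, and 1.06, 0.841 and 1.79 on the Control arrays. The arrays kept much the order they had for RT1-Da, with D3 replicate 15 and Chronic replicate 42 at the top and D7 replicate 32 at the bottom. RT1-Ba rose by 2.54 ± 0.52 at D3 (log2, SE, limma adjusted p = 0.00195), by 1.72 ± 0.52 at D7 (adjusted p = 0.0271) and by 3.01 ± 0.52 in Chronic (adjusted p = 0.00148). The call at D7 was the least stable of the chains: it was lost without D7 replicate 33 (limma adjusted p = 0.0699), D7 replicate 35 (0.0606), Control replicate 26 (0.0914) or Control replicate 36 (0.125). Leaving out D7 replicate 32 gave 2.23 with a limma adjusted p of 0.000947.

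RT1-Bb, the beta chain that pairs with RT1-Ba, was close to background and gave no call. Its probe was flagged G on 2 of 5 arrays at D3, 2 of 5 at D7, 2 of 5 in Chronic and none of 3 in Control. It ranged from 0.0971 to 1.23 on D3 arrays, 0.124 to 0.382 on D7 arrays and 0.110 to 1.13 on Chronic arrays, against 0.0325 to 0.233 in Control. The highest values belonged to D3 replicate 15 and Chronic replicate 42, the arrays that were also highest for RT1-Ba. The fitted differences were 1.31, 1.02 and 1.09 at the 3 times, each with an SE of 0.83, and the limma adjusted p was 0.287 or more. Without Control replicate 47 they were 0.46, 0.16 and 0.24. A change of the fitted size was not detectable with this spread.

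**Figure D2:**
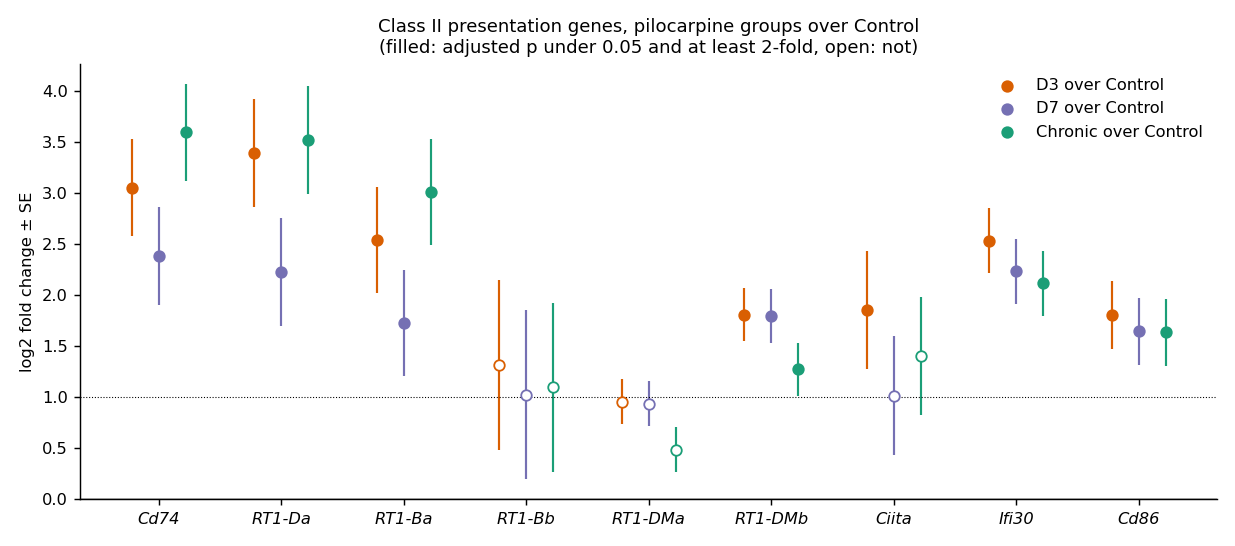
log2 fold change over Control (points) with its standard error from limma (bars) for the 9 genes at D3, D7 and Chronic. Filled points had an adjusted p under 0.05 and at least a 2-fold change (dotted line). Cd74, RT1-Da and RT1-Ba had the greatest values in Chronic (3.59, 3.52 and 3.01) and their lowest at D7 (2.38, 2.22 and 1.72), whereas RT1-DMb and RT1-DMa had their lowest in Chronic (1.27 and 0.48).

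The peptide exchange dimer had smaller fold changes, with the lowest in Chronic. RT1-DMb, its beta chain, measured 24.7, 18.4, 17.5, 20.4 and 18 on the D3 arrays, 19.4, 10.8, 35.6, 16.1 and 23.7 on the D7 arrays, 13.2, 12.6, 13.5, 10.9 and 19.5 on the Chronic arrays, and 5.8, 4.96 and 6.26 on the Control arrays. No pilocarpine array overlapped Control. RT1-DMb rose 3.48-fold at D3 (1.80 ± 0.26, log2, SE, limma adjusted p = 0.000109), 3.46-fold at D7 (1.79 ± 0.26, adjusted p = 0.000241) and 2.42-fold in Chronic (1.27 ± 0.26, adjusted p = 0.00393). RT1-DMa, the alpha chain, lay between 11.5 and 14.8 on D3 arrays, 9.02 and 22.8 on D7 arrays and 7.31 and 13.7 on Chronic arrays, against 5.71 to 7.45 in Control. Its arrays did not overlap Control at D3 or D7, and all Chronic arrays but replicate 44 were also above Control.

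RT1-DMa was just under the 2-fold limit at D3 and D7. The difference from Control was 0.95 ± 0.22 at D3 (log2, SE, limma adjusted p = 0.0053), 0.93 ± 0.22 at D7 (adjusted p = 0.00922) and 0.48 ± 0.22 in Chronic (adjusted p = 0.155). With quantile normalization it was 1.10 at D3 and 1.09 at D7 and was called at both times, as it was when the arrays were scaled at the 75th percentile (1 and 1.04). It was also called at D3 without Control replicate 36 (1.01) or replicate 47 (1.01), and at D7 without D7 replicate 32 (1.06).

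Ciita was measured at low intensity. The probe with the higher mean, which stands for an expressed sequence tag, gave 0.761, 0.870, 0.728, 0.219 and 2.10 at D3, 0.513, 0.130, 0.918, 0.276 and 0.730 at D7, 0.742, 0.806, 0.428, 0.500 and 0.364 in Chronic, and 0.168, 0.214 and 0.243 in Control. It was flagged G on 4 of 5, 3 of 5 and 5 of 5 pilocarpine arrays and on none of 3 Control arrays. Since this probe was not well above background in Control, its level there is only bounded by the lowest intensity flagged G on each array. Against that bound the group means of the log2 values were 2.60-fold higher at D3, 1.46-fold at D7 and 1.91-fold in Chronic. These folds make no allowance for the spread between arrays, and the D3 and D7 means include spots flagged L. Only D3 was called (1.85 ± 0.58, log2, SE, limma adjusted p = 0.0278), and D7 (1.01 ± 0.58, adjusted p = 0.241) and Chronic (1.4 ± 0.58, adjusted p = 0.112) were not, although all Chronic arrays were above Control.

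The D3 call of Ciita did not survive the removal of D3 replicate 12 (limma adjusted p = 0.0521), D3 replicate 15 (0.0716), Control replicate 26 (0.104), replicate 36 (0.0744) or replicate 47 (0.0533). The other Ciita probe, from the RefSeq transcript, lay between 0.244 and 0.518 on D3 arrays, 0.1 and 0.523 on D7 arrays and 0.302 and 0.408 on Chronic arrays, against 0.245 to 0.555 in Control. It differed from Control by 0.03, -0.50 and -0.13 (log2) and was not called, so the probes of this gene disagree. It was flagged G on 3 of 5 D3, 2 of 5 D7, 2 of 5 Chronic and 2 of 3 Control arrays, and in Control it was the brighter of the pair, with a mean log2 value of -1.38 against -2.28. The probe with the higher mean over all arrays thus had it through the pilocarpine groups, where it was high.

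Ifi30, the lysosomal thiol reductase that unfolds antigens before cleavage, rose at every time. It measured 8.41, 8.64, 6.92, 8.85 and 10.8 at D3, 6.39, 3.96, 16.7, 5.21 and 7.65 at D7, 7.13, 5.67, 5.36, 4.77 and 11 in Chronic, and 1.29, 1.49 and 1.73 in Control. The lowest pilocarpine array was more than all Control arrays. The log2 fold change was 2.53 ± 0.32 at D3 (SE, limma adjusted p = 3.88e-05), 2.23 ± 0.32 at D7 (adjusted p = 0.000269) and 2.11 ± 0.32 in Chronic (adjusted p = 0.000696).

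Cd86, the costimulatory ligand that a presenting cell shows to CD28 on the T cell, was dim but above background on all pilocarpine arrays. It ranged from 0.674 to 0.899 on D3 arrays, 0.419 to 1.21 on D7 arrays and 0.492 to 0.981 on Chronic arrays, against 0.425 in Control replicate 26 (flag G) and 0.153 and 0.167 on the other Control arrays (flag L). Only D7 replicate 34, at 0.419, was below the highest Control array. The log2 fold change was 1.80 ± 0.33 at D3 (SE, limma adjusted p = 0.000929), 1.64 ± 0.33 at D7 (adjusted p = 0.00334) and 1.63 ± 0.33 in Chronic (adjusted p = 0.00428). Against Control replicate 26 alone, the array of its own time, the D3 difference was 0.86 (adjusted p = 0.252 by limma).

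Between the times after SE no member was called, where 0.0947% of all probes were called higher and 0.228% lower at D7 than at D3, 0.195% and 0.547% in Chronic than at D3, and 0.0207% and 0.0296% in Chronic than at D7. At an unadjusted p under 0.05 in limma the members numbered 1, 2 and 5 in these comparisons, against 12.7%, 16.7% and 10.1% of all probes, and the test named in the study's methods, with a 2-fold limit, called 0 in each. The 5 were split in direction. Cd74, RT1-Da and RT1-Ba were higher in Chronic than at D7, by 1.21 ± 0.41 (limma adjusted p = 0.32), 1.30 ± 0.46 (adjusted p = 0.335) and 1.29 ± 0.45 (adjusted p = 0.327) on the log2 scale. RT1-DMb and RT1-DMa were lower, by -0.52 ± 0.22 (limma adjusted p = 0.444) and -0.45 ± 0.19 (adjusted p = 0.449). Without D7 replicate 32 these 5 differences were 0.75, 0.82, 0.78, -0.73 and -0.58, so the first of these groups moved closer to 0 by over 1.5 times and RT1-DMb and RT1-DMa moved away from it. On the same array, the log2 value of Cd74 minus that of RT1-DMb was 0.65 to 1.77 in Chronic and -1.54 to 0.10 at D7, without overlap. At D3 it was -0.62 to 1.12, which overlapped both of these groups. The zero of this difference only reflects probe brightness. How often other pairs of probes lack overlap in this way was not computed. This difference was looked at after the values were seen and was not tested.

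Some of the genes moved together from array to array. Over the 15 pilocarpine arrays, the log2 value of Cd74 was correlated with that of RT1-Ba (r = 0.97, rho = 0.91, adjusted p = 4e-05 for r by permutation over 8 relations) and of RT1-Da (r = 0.95, rho = 0.88, adjusted p = 4e-05), where the unadjusted 1e-05 is the smallest that 100000 permutations can give. RT1-Da and RT1-Ba had r = 0.98 with each other. Without the 2 arrays farthest from the median of Cd74 (D7 replicate 32 and Chronic replicate 42), r was 0.90 with RT1-Ba and 0.85 with RT1-Da, and with each group's mean taken off it was 0.96 for both.

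Ciita was correlated with the same genes. Its r with Cd74 was 0.72 (adjusted p = 0.00731 by permutation, rho = 0.51 with adjusted p = 0.144), and 0.81 with RT1-Da. It was 0.52 without the 2 farthest arrays (adjusted p = 0.172 by permutation), and 0.31 over the 12 arrays where Ciita was flagged G, so this relation rests on dim spots and on few arrays. RT1-DMb (r = 0.18, rho = -0.07), RT1-DMa (0.18, 0.07), Cd86 (0.33, 0.10), RT1-Bb (0.24, 0.15) and Ifi30 (0.45, 0.31) did not pass the test against Cd74, with adjusted p between 0.193 and 0.519 by permutation. Over the 6 arrays where RT1-Bb was flagged G, its r was 0.88 (adjusted p = 0.0409 by permutation) and its rho 0.89 (adjusted p = 0.0876). With the group means taken off, the r of RT1-DMa (0.66), RT1-DMb (0.65), Ifi30 (0.64) and Ciita (0.82) passed as well, with adjusted p of 0.0183 or less by permutation. The members that passed by r thus numbered 6 of 8 in place of 3. By rho, RT1-DMb (0.31, adjusted p = 0.351 by permutation) and Ifi30 (0.49, adjusted p = 0.11) then did not pass, whereas RT1-DMa (0.64) and Ciita (0.63) did, each with 0.0284.

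**Figure D3:**
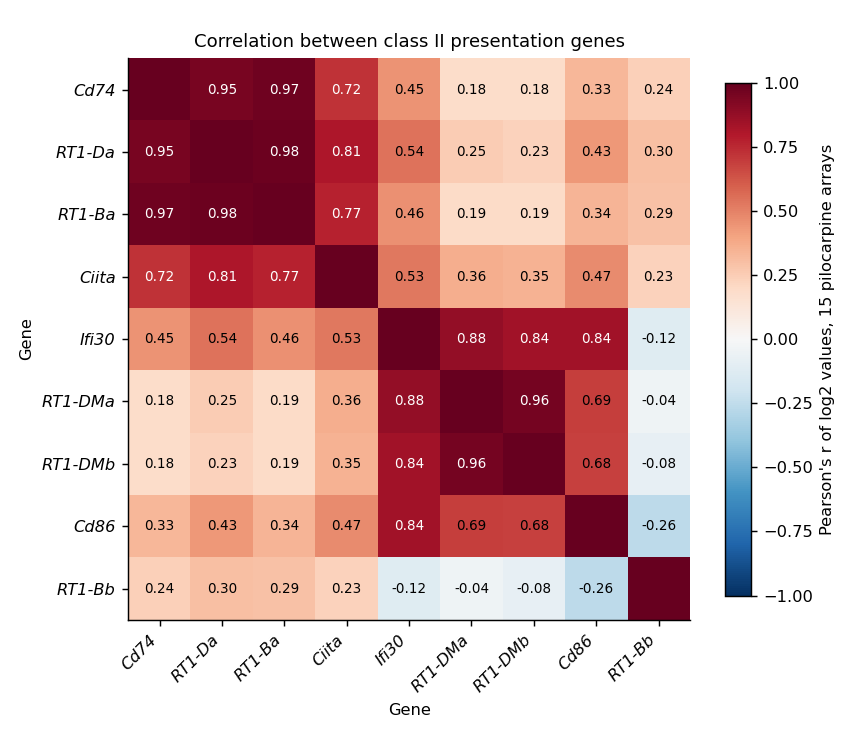
Pearson's r between the log2 values of each pair of the 9 genes over the 15 pilocarpine arrays (colour scale from -1 to 1). Cd74, RT1-Da and RT1-Ba had r of 0.95 to 0.98 with each other and 0.18 to 0.25 with RT1-DMa and RT1-DMb, which had 0.96 with each other and 0.84 to 0.88 with Ifi30. With group means taken off, the r of Cd74, RT1-Da and RT1-Ba with RT1-DMa and RT1-DMb was 0.61 to 0.66.

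The DM genes and Ifi30 were also correlated with each other. RT1-DMa and RT1-DMb had r = 0.96 with each other, and Ifi30 had 0.88 with RT1-DMa, 0.84 with RT1-DMb and 0.84 with Cd86. The r of the DM genes and Ifi30 with Cd74, RT1-Da and RT1-Ba was 0.18 to 0.54, and 0.61 to 0.68 with group means taken off. For these 3 genes and Cd86, D7 replicate 33 was the highest array of all, with 35.6 for RT1-DMb, 22.8 for RT1-DMa, 16.7 for Ifi30 and 1.21 for Cd86, whereas for Cd74, RT1-Da and RT1-Ba the top arrays were D3 replicate 15 and Chronic replicate 42.

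Microglia markers were set beside the members. Of 12 listed markers of microglia 10 were measured, and calls of a higher level numbered 5 at D3, 7 at D7 and 4 for Chronic, among them C1qa, Aif1 and P2ry12 at every time. Trem2 was at background on every array, and Tmem119 was not called at any time (0.32, 0.83 and 0.43 on the log2 scale). The summed intensity of the 10 measured markers was 142 to 184 on D3 arrays, 118 to 294 on D7 arrays and 111 to 172 on Chronic arrays, against 59.5 to 66.4 in Control, with D7 replicate 32 the lowest and D7 replicate 33 the highest at D7. Csf1r, C1qa and Aif1, with means of 54.1, 50 and 31.3 at D3, made up most of the sum. It therefore follows mainly these bright probes and little of the dimmer markers. In whole tissue, more cells of a type and more RNA per cell cannot be told apart. The part of this rise in the class II values was not tested.

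Over the 15 pilocarpine arrays the log2 of this sum was correlated with RT1-DMb (r = 0.94, rho = 0.92, adjusted p = 4.5e-05 by permutation over 9 relations), RT1-DMa (r = 0.92, rho = 0.87, adjusted p = 4.5e-05) and Ifi30 (r = 0.77, rho = 0.68, adjusted p = 0.00255), and without its 2 farthest arrays (D7 replicates 33 and 35) r was 0.92, 0.87 and 0.69. Cd86 had r = 0.65 (adjusted p = 0.0196 by permutation) but rho = 0.51 (adjusted p = 0.121) and r = 0.51 without these arrays. Cd74 (r = 0.22, rho = -0.05), RT1-Ba (0.22, 0.12) and RT1-Da (0.21, 0.09) did not pass, each with an adjusted p of 0.473 by permutation. With group means taken off, r was 0.69, 0.67 and 0.67 for these 3 genes, against 0.98 for RT1-DMb and 0.96 for RT1-DMa. These relations were computed after the values were seen, and the difference between them was not tested.

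**Figure D4:**
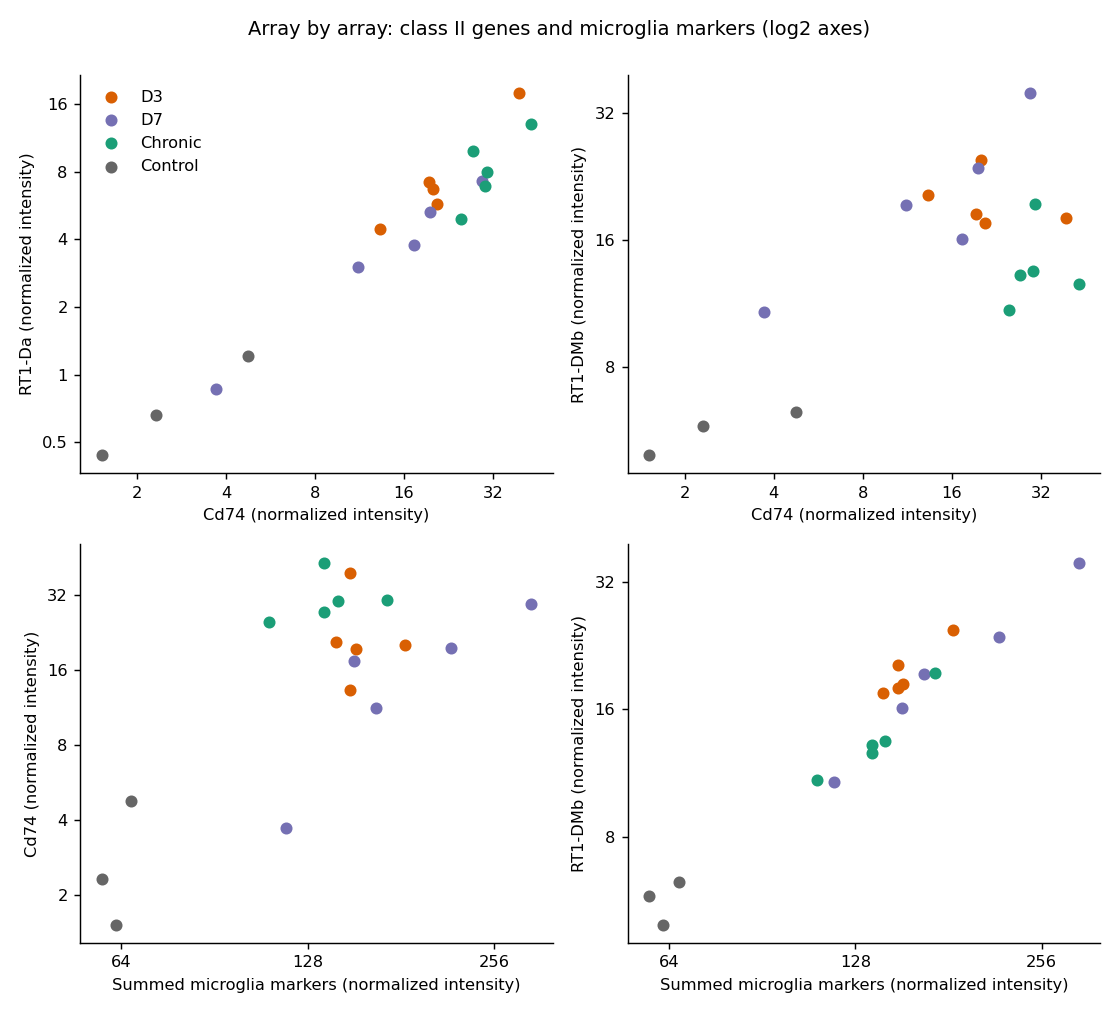
Each point is 1 array of D3, D7, Chronic or Control, in normalized intensity on log2 axes. Cd74 is set against RT1-Da and RT1-DMb in the upper panels, and the summed microglia markers against Cd74 and RT1-DMb in the lower panels. Over the 15 pilocarpine arrays r was 0.95 for Cd74 with RT1-Da, 0.18 for Cd74 with RT1-DMb, 0.22 for the microglia sum with Cd74 and 0.94 for the microglia sum with RT1-DMb. With group means taken off these were 0.96, 0.65, 0.69 and 0.98.

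Markers of other cells that could present antigen were measured as well. Of 10 measured markers of monocytes and macrophages, those called higher numbered 5 (D3), 3 (D7) and 1 (Chronic). F10, the only one called in Chronic, was called at each time (2.09, 2.90 and 2.65 on the log2 scale). Its probe was flagged G on 1 of 3 Control arrays. Lyz2 measured 5.44 to 10.1 at D3 and 1.25 to 2.74 in Chronic, against 1 to 1.09 in Control. Ccr2, Ly6c, Cd163 and S100a9 differed from Control by 0.19, 0.07, -0.01 and -0.61 (log2) at D3 and were not called at any time. The brightest marker of this list at D3 was Fn1 (8.13 to 15.6), which weighs most in the sum there. The sum of the 10 markers was 20.8 to 30.4 on D3 arrays, 13.4 to 80.6 on D7 arrays (at most 23.2 without D7 replicate 31) and 11.3 to 17.2 on Chronic arrays, against 9.19 to 11.5 in Control, so that every Chronic array was below every D3 array. Of 9 measured dendritic cell markers, 1 was called at D3 (Clec10a) and 1 in Chronic (Batf3). Batf3 was flagged L on all Control arrays. Its Chronic mean was 1.82-fold above the lowest intensities flagged G there, without allowance for spread. The sum of the 9 markers was 10.3 to 15.1, 9.08 to 15 and 8.64 to 12.9 at the 3 times, against 8.90 to 9.85 in Control. Clec9a and Ccr7 were at background on every array. Of 5 measured B cell markers, Cd22, which microglia of mice also make, was the only one called, and Blk and Fcer2 were at background on every array. Against the same kind of bound for Control, the means of Cd22 were 2.65-, 2.72- and 4.93-fold higher at the 3 times. B cell markers summed to 2.64 to 3.73, 2.58 to 4.53 and 3.00 to 4.36 at the 3 times, against 2.52 to 2.66 in Control. The choroid plexus sum differed widely within every group. The D3 arrays lay between 24.9 and 131, and the D7 arrays between 25.1 and 171. Chronic arrays spanned 36.9 to 360 and Control arrays 39.2 to 321. Over its 14 markers, the median log2 fold change of Chronic was 1.34 over D3, 1.11 over D7 and 1.24 over Control, with 0 called. The part of these markers in the class II values was not tested.

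Genes of T cells, the readers of class II, were measured too. Of the partners of class II on T cells, Cd4, Cd3d and Cd3e were measured and 0 of 3 were called at any time by limma, or had an unadjusted p under 0.05. The Cd4 probe was flagged G on 1 of 18 arrays. Of 10 measured T cell markers, 2 were called higher at each time, against 3.42% (D3), 3.06% (D7) and 2.28% (Chronic) of all probes. They were Cd5 and Cd8b, which is part of a coreceptor for class I and not for class II. The group means of Cd8b were 2.29-fold at D3, 1.65-fold at D7 and 2.01-fold in Chronic above the lowest intensities flagged G on the Control arrays, without allowance for spread. For Cd5, also flagged L on all Control arrays, these folds were 1.57, 2.05 and 1.53. T cell markers summed to 4.97 to 7.17 on D3 arrays, 4.96 to 5.72 on D7 arrays and 4.70 to 6.61 on Chronic arrays, against 4.40 to 5.34 in Control.

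RT1-Db1 and RT1-DOa were the other class II genes measured. RT1-Db1, the beta chain that pairs with RT1-Da, ranged from 0.136 to 5.47 on D3 arrays, 0.132 to 1.72 on D7 arrays and 0.200 to 7.26 on Chronic arrays, against 0.118 to 0.562 in Control, and its differences of 1.49, 0.83 and 1.76 each had an SE of 1.22. It was flagged G on 12 of 18 arrays. RT1-DOa, a chain of the DO dimer that restrains DM, was flagged G on 2 of 18 arrays. Neither was called, and neither had an unadjusted p under 0.05.

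Of 11 measured genes for processing and turnover of class II, those called higher numbered 3 (D3), 5 (D7) and 2 (Chronic), and none was called lower, with medians of 0.56, 0.49 and 0.44 on the log2 scale. Lgmn, the asparaginyl endopeptidase that starts the cleavage of the invariant chain, measured 6.44 to 8.61 on D3 arrays, 4.61 to 13.4 on D7 arrays and 3.83 to 7.33 on Chronic arrays, against 1.99 to 2.84 in Control, and was higher by 1.74 ± 0.25, 1.59 ± 0.25 and 1.08 ± 0.25 (log2, SE, limma adjusted p = 0.000105, 0.000504 and 0.00844). Cd63, a tetraspanin of the compartment where class II is loaded, rose by 1.37, 1.08 and 1.08. Ctss, the protease that trims the invariant chain to its last piece, measured 25.3 to 31.1 on D3 arrays, 41.4 to 58.2 on D7 arrays and 24.8 to 42.1 on Chronic arrays, against 16.4 to 19.8 in Control, and was called at D7 only (1.38 ± 0.14, limma adjusted p = 1.26e-05), where D3 had 0.64 and Chronic 0.93. Ctsd was called at D3 (1.06) and D7 (1.12), and Cst3, an inhibitor of Ctss, at D7 (1.01). Between times, Ctss and Cst3 were higher at D7 than at D3 by 0.73 and 0.78 (limma adjusted p = 0.00923 and 0.0199), under the 2-fold limit. None of the 11 genes was called between times, and 3 (D7 against D3), 5 (Chronic against D3) and 5 (Chronic against D7) had an unadjusted p under 0.05.

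The genes for proteins that sit on class II promoters gave no call. Of 10 genes for class II transcription, 0 were called at any time by limma, and 5, 1 and 3 had an unadjusted p under 0.05 at D3, D7 and Chronic, against 34.2%, 32.1% and 29.4% of all probes. Their fold changes lay between -0.35 and 0.65 on the log2 scale. Rfx5, which binds the X1 box, differed from Control by -0.24, -0.13 and -0.29, and Nfya, which binds the Y box, by 0.39, 0.24 and 0.42. Kat2b, an acetyltransferase that works with Ciita, had 0.65, 0.49 and 0.62 with limma adjusted p of 0.00538, 0.0339 and 0.0125, under the 2-fold limit.

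Among 9 measured genes that induce Ciita, 2 were called at D3, 2 at D7 and 0 in Chronic by limma, where 3 had an unadjusted p under 0.05. Ifng, the classical inducer, was at background on all 18 arrays. Its receptor chain Ifngr1 measured 11.9 to 14.6 on D3 arrays, 13.3 to 17.4 on D7 arrays and 8.99 to 13.2 on Chronic arrays, against 5.98 to 6.99 in Control, and rose by 1.03 ± 0.12 at D3 and 1.22 ± 0.12 at D7, with 0.75 in Chronic. Irf1, an interferon-induced factor that acts on a Ciita promoter, rose by 1.01 and 1.02 at these times, with 0.96 in Chronic.

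Of 6 measured genes that restrain Ciita, 3 were called higher at D3, 3 at D7 and 3 in Chronic. Tgfb1, a cytokine that lowers Ciita in astrocytes and macrophages, measured 1.96 to 2.29 on D3 arrays, 1.62 to 5.33 on D7 arrays and 1.4 to 2.74 on Chronic arrays, against 0.278 to 0.716 in Control, and rose by 2.01 ± 0.32, 2.33 ± 0.32 and 1.88 ± 0.32 (log2, SE, limma adjusted p = 0.000283, 0.000174 and 0.00146). Il10ra, a chain of the interleukin 10 receptor, rose by 1.18, 1.53 and 1.10, and Prdm1, a repressor of Ciita in plasma cells, by 1.04, 1.14 and 1.06. Il10 itself was at background on all arrays.

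Of 8 measured costimulatory genes, 3 were called at D3, 3 at D7 and 2 in Chronic. Tnfsf4, the OX40 ligand, measured 0.906 to 1.41 on D3 arrays, 0.821 to 2.42 on D7 arrays and 0.844 to 1.43 on Chronic arrays, against 0.181 to 0.335 in Control, where it was near background. Its group means were 3.94-, 4.72- and 4.08-fold above the bound for Control, without allowance for spread. Icam1, an adhesion molecule that steadies the contact with the T cell, rose by 1.53, 1.49 and 1.69, and Cd48 by 1.59 at D3 and 1.46 at D7, with 0.99 in Chronic. Cd80, the relative of Cd86 that also binds CD28 on the T cell, differed from Control by -0.41, -0.55 and -0.16 and was not called.

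**Figure D5:**
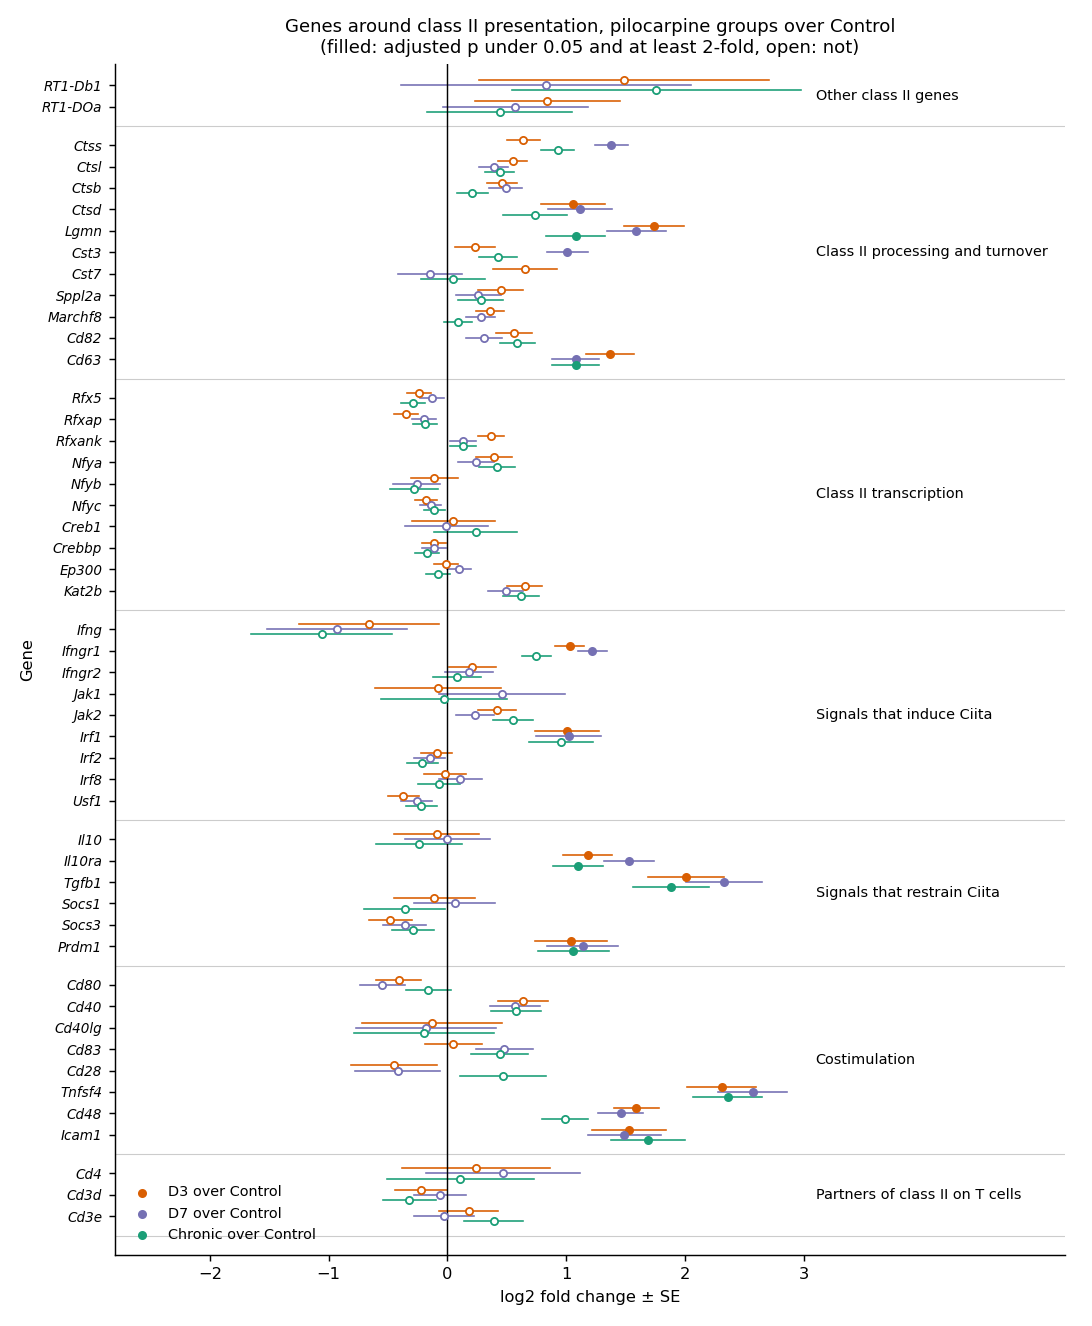
log2 fold change over Control (points) with its standard error from limma (bars) for genes around class II presentation at D3, D7 and Chronic, grouped by role, where a gene near background in Control is plotted at its fitted value. Filled points had an adjusted p under 0.05 and at least a 2-fold change. Calls lay among processing genes such as Lgmn (1.74, 1.59 and 1.08), restraining signals such as Tgfb1 (2.01, 2.33 and 1.88) and costimulation such as Icam1 (1.53, 1.49 and 1.69), with 0 of 10 among the class II transcription genes.

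The genes whose values over the 15 pilocarpine arrays were most like the mean of 8 members (RT1-Bb was left out as too dim) were Cd8b (r = 0.91), Mdfi (0.91), Mapkapk3 (0.88), Nme6 (0.88), Il10rb (0.87), Ctsz (0.86), Mcm2 (0.86) and Tyrobp (0.85), out of 11349 genes. With group means taken off, r was 0.85 to 0.96 for these 8. Tyrobp is an adaptor of microglial receptors and Ctsz a lysosomal protease. Cd8b was itself called higher at all 3 times, whereas the log2 fold changes of Mdfi were 0.40, -0.32 and -0.13. These are descriptions of likeness among arrays that share their scaling.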

How the data were processed

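Whole-hippocampus RNA of 18 samples (5 D3, 5 D7, 5 Chronic, 3 Control) was hybridized by the authors to 1-colour CodeLink arrays, scanned with GenePix and read with the CodeLink software, with no genome build involved. The deposited intensity is the spot minus its local background, divided by 1 constant per array (97.333 to 189.84), and the deposited series table holds the same values. The number of arrays limits the precision.

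Spots with flags other than G or L (0.699%) were set to missing. Values were raised to percentile 1 of the positive values of their array, and the log2 of the deposited intensity was taken. Tested probes (33800 of 33849) had 3 or more values per pilocarpine group and 2 or more in Control. The 4 groups were fitted as 1 model in limma 3.58.1 (R 4.3.3), with an intensity trend and Benjamini-Hochberg adjustment over all tested probes, and the script was tested on simulated data. Calls needed an adjusted p under 0.05 and a 2-fold change, and each gene is given by its probe of highest mean log2 value. Correlations used 100000 permutations. The methods state Student's test at an unadjusted threshold, which was run as an alternative against the 3 Control arrays together. The intensity-dependent cutoff and the pair-matched controls that the methods also state were not reproduced.

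Probes were named by the platform annotation (16740) or by RefSeq accession (205). The 9 members, and the lists around them, were chosen with earlier results of these data known. One gene of the list of signals that induce Ciita is not reported here. All members are named, some genes of each list, mostly those with the largest changes from Control, and the 8 genes most like the mean of the members. A gene that is named, was called and had all its Control spots flagged L is bounded there by the lowest intensity flagged G on each array. Promoters are from RefSeq on GRCr8. Alternatives were other scalings, filters, pseudocounts, tests and controls, and each array left out in turn.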

Additional observations from a re-analysis of the deposited data

Results flagged for a closer look

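Among the 9 genes in the 3 pilocarpine groups (27 groups of 5 arrays), a single array lay far from the others in 2, and chance gives about 1 in 20. RT1-Da measured 17.9 on D3 replicate 15, where the next highest D3 array had 7.21, a gap of 0.795 of the range of the group. Ifi30 measured 16.7 on D7 replicate 33, where the next highest D7 array had 7.65, a gap of 0.711 of the range. On the log2 scale, on which the tests were made, these gaps were 0.654 and 0.543 of the range, below the critical value of 0.71 for 5 samples.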

How the results depend on the processing

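The count of members called higher depended most on the controls and the test. With the Control array of the same time alone it was 4 at D3 (7 with all 3 arrays) and 0 in Chronic (6). With the methods' test after Benjamini-Hochberg adjustment it was 0 at D7 (6), with 0.269% of all probes called. At the unadjusted threshold in the methods and 2-fold, 5 members were called higher at D7, as were 1195 of the 33800 tested probes. Leaving out 1 array at a time gave counts of 6 to 7 (D3), 4 to 7 (D7) and 6 to 6 (Chronic). By Pearson's r, the members correlated with Cd74 numbered 6 with group means taken off (3), and not all of them passed by rho. The causes were not tested. No difference of a member reversed a call, and of 975 values of single members under the alternatives 936 kept their side of the threshold, 31 lost it and 8 gained it. Ciita and RT1-Bb were limited by signal near background. A normexp background correction was not run, since the background of each spot is not used here apart from the deposited difference. No paired analysis was possible because replicate numbers differ between all groups.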
